A study of Papilio xuthus with 10 samples.

Results

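A set of 28 genes of the swallowtail butterfly *Papilio xuthus* had its highest level in the male pupa, out of 15123 genes measured in 10 whole-body RNA-seq libraries. The genes were selected on the deposited RPKM values themselves, where RPKM is the number of reads scaled to the length of the gene and the depth of its library. A gene was taken if it had 10 RPKM or more in the male pupa and if this value, with 1 added, was at least 4 times the value, with 1 added, of each of the other 9 libraries. This rule was passed by 0.185% of all genes. Since the rule fixes that the male pupa is high, the levels below are a description and no test was made of them. What the rule leaves free is which of the other libraries comes next, by how much, and how the remaining libraries are ordered among themselves.

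Each group was 1 library. The male pupa was set against the egg, the larvae of instars 1 to 5 (instars are the larval stages that moults divide), the female pupa, the male adult and the female adult. The animals were untreated, and no mutant or transgene is involved. In the study, most pupae were bought, and some pupae and adults were raised from collected larvae. Eggs came from hand-paired adults and could develop on the host plant. Larvae were fed a plant of the citrus family. The origin of each library is not given in the methods. Per the methods of the study, the egg and the larvae of instars 1 and 2 were pools of several animals, and the other libraries, the male pupa included, were single animals. The age of the pupae within their stage is not given in the sources used here. With a single male pupa there is no replicate error, and a difference below is one between 2 libraries, which may be that between 2 animals. In whole bodies, fewer cells of a type and less RNA per cell cannot be told apart.

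The pupa is the stage at which a butterfly dismantles larval tissues and builds the wings, legs, compound eyes, flight muscles and reproductive organs of the adult. Male butterflies carry a pair of Z chromosomes, and females a Z and a W. In moths and butterflies sperm formation is well under way before the adult emerges, and in many species the pupal testis holds germ cells at successive steps, including a fertilizing and a non-fertilizing kind of sperm. The table lists identifiers without gene names, and RefSeq's list of 13139 genes for assembly Pxut_1.1 held 0 of them. No function can therefore be given to any of the 28 genes, tissue markers could not be examined, and no sequence is shown. At most 2 identifiers are named for each property described, together with single genes that stand apart.

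Whole reads were read back from the RPKM values, and library totals ranged from 23378656 to 35161755 reads, the male pupa having the most. In instars 2 to 5 the reads at genes summed to between 124% and 154% of the library total, whereas in the other 6 libraries they came to between 76.5% and 98.6%. The larval values are thus on a scale that may differ from that of the pupae. With instars 2 to 5 left out of the rule, 29 genes passed. Leaving libraries out can only add genes, so all 28 were among them by construction. Read numbers give exact 95% intervals (Clopper-Pearson) and a limit of 3 reads where a gene had 0 reads. These cover counting error only, not the spread between animals. The 28 genes had between 82 and 377917 reads in the male pupa, with a median of 943.5.

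The same rule applied to each library in turn shows how many genes stood out in this way elsewhere. The male pupa had 28 such genes, against 12 in the female pupa, 343 in the male adult and 61 in the female adult. Among the younger stages the number was 0 in the egg, 0 in instar 1, 71 in instar 2, 6 in instar 3, 9 in instar 4 and 37 in instar 5. A library with a near neighbour has few such genes by construction, as a gene shared by 2 libraries passes in neither.

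**Figure D1:**
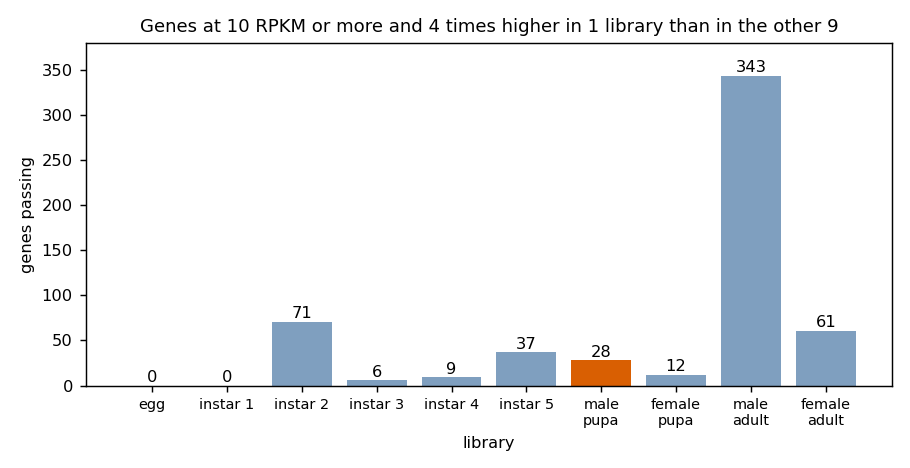
Number of genes with 10 RPKM or more in a library and at least 4 times the value (with 1 added) of each of the other 9 libraries, 1 bar per library, in order of stage. The male pupa (orange) has 28 genes, fewer than the male adult with 343 and more than the female pupa with 12.

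Levels in the male pupa spanned a wide range. The lowest was 10.2 RPKM, the median 32.8 RPKM and the highest 8297 RPKM. Of the 28 genes, 10 lay between 10 and 20 RPKM, 12 between 20 and 100 RPKM and 6 at 100 RPKM or more. The summed RPKM of the genes was 17546 in the male pupa, against 1938 in the female pupa, 267 in the male adult and 292 in the female adult. In the younger stages it was 374 in the egg and 459, 882, 1337, 724 and 1779 in instars 1 to 5. This was 1.56% of all RPKM in the male pupa, against 0.186% in the female pupa. The sum rested on 2 genes. Without RR46_02278 and RR46_11993 it was 2169 in the male pupa, 263 in the female pupa, 151 in the male adult and 125 in the female adult, and in the egg and instars 1 to 5 it was 16.7, 20.9, 32.7, 134, 42.7 and 10.0.

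The level in the male pupa exceeded that of the next-highest library by a median of 2.32 in log2(RPKM + 1), with a range of 2.00 to 3.84. On the scale with 1 added these are ratios of 5.00 at the median, 4.01 at the lowest and 14.3 at the highest. Genes lay close to both limits of the rule. Just inside the fold limit were RR46_11356, with a ratio of 4.01, and RR46_08316, with 4.02. Just outside it were RR46_00590, with 3.96, and RR46_02336, with 3.90. RR46_02336 was abundant, at 720 RPKM in the male pupa and 184 RPKM in the male adult. At the limit of 10 RPKM, RR46_06666 was inside at 10.2 RPKM and RR46_05093 outside at 9.91 RPKM. With 1 added, the ratios thus ran on across the limit without a gap. For 3 of the 28 genes the exact interval of the ratio of RPKM to the next-highest library reached below 4. This ratio has no 1 added and is larger than that of the rule. For RR46_08316 it was 4.95 (4.02 to 6.14), against 4.02 with 1 added. The count of 3 can therefore understate how many genes counting error could move across the limit.

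The genes were divided into 2 groups by their next-highest library, a grouping that itself sets in part how they differ in the male adult. This library was the male adult for 20 genes. For the other 8 it was the female pupa (4 genes), the female adult (1), instar 1 (1), instar 3 (1) or instar 5 (1). Of the 28 genes, 24 reached 1 RPKM in the male adult, against 9 in the female adult, 8 in the female pupa, 4 in instar 5 and 4 in the egg. Over all genes the share at 1 RPKM or more was 82.2% in the male adult, 73.6% in the female adult, 75.2% in the female pupa, 71.2% in instar 5 and 79.1% in the egg. The share of the 28 genes was close to that of all genes in the male adult (85.7%) and below it in the female adult (32.1%), the female pupa (28.6%), instar 5 (14.3%) and the egg (14.3%). The rule limits the levels in each of these 5 libraries. In the female pupa 7 genes had 0 reads, in the male adult 1, in the female adult 3 and in instar 5, the stage before pupation, 16.

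**Figure D2:**
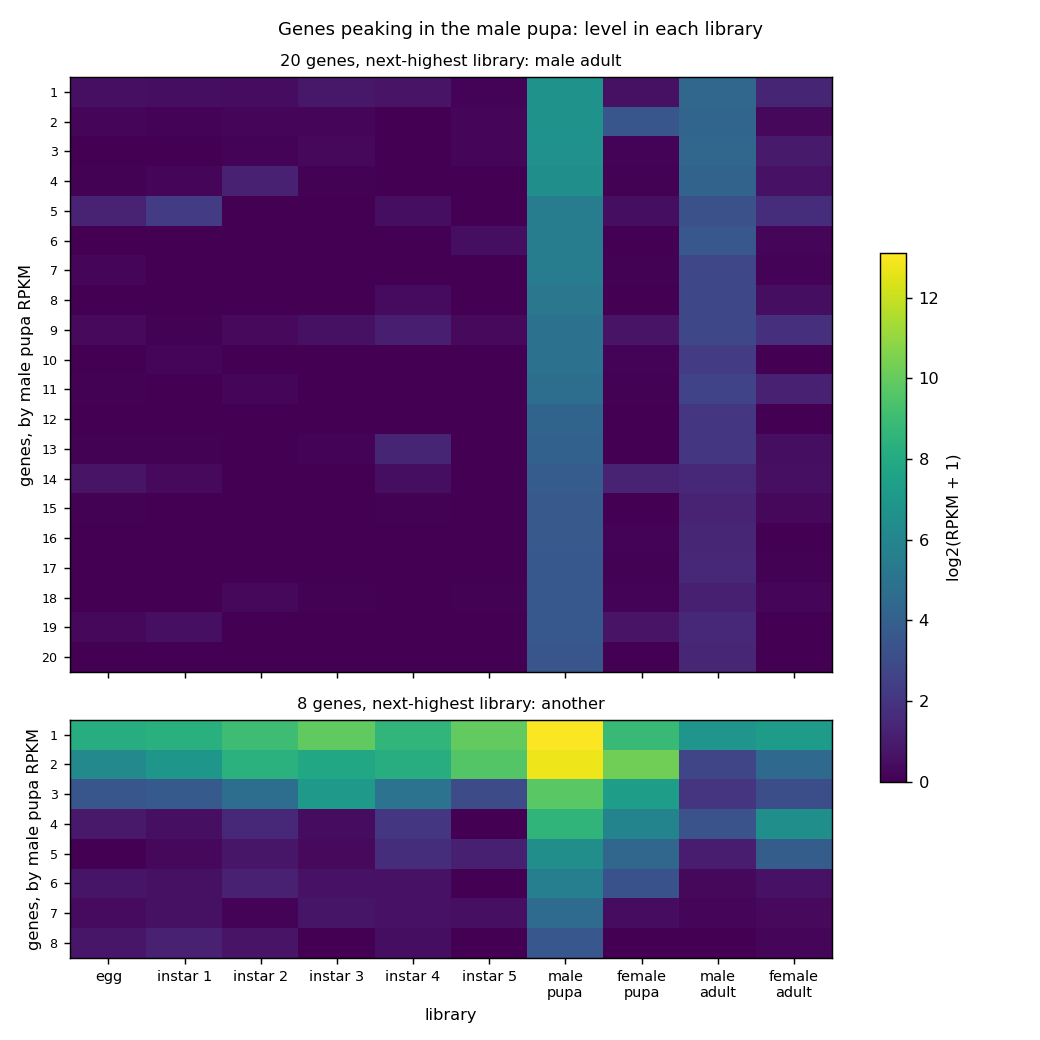
Level of the 28 genes, as log2(RPKM + 1), in the 10 libraries, with 1 row per gene in descending order of the male pupa value and 1 column per library. In the upper panel (20 genes, next highest in the male adult) the 2 male columns stand out from an almost empty background, and in the lower panel (8 genes) the most abundant genes have signal in all libraries.

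The 20 genes whose next-highest library was the male adult were of moderate level. They ranged from 10.2 to 106 RPKM in the male pupa, with a median of 26.9 RPKM, and from 1.26 to 19.2 RPKM in the male adult, with a median of 4.56 RPKM. The male adult held between 11.2% and 23.3% of the male pupa value, with a median of 17.3%. The upper end of this range follows from the rule and the lower end does not. In RPKM without an added value, these genes were between 4.29-fold and 8.95-fold higher in the male pupa than in the male adult, and the median was 5.78-fold.

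In the remaining libraries most of these 20 genes were at the edge of detection. The female pupa had 0 reads for 6 of them, against 5.11% of all genes. It was below 1 RPKM for 18 of them and had a median of 0.0670 RPKM. The female adult had a median of 0.220 RPKM and a highest value of 2.47 RPKM. The highest value of a gene in the egg or any instar had a median of 0.209 RPKM over the 20 genes, and 4 genes reached 1 RPKM there, the highest at 4.00 RPKM. In all, 13 of the 28 genes were below 1 RPKM in each library other than the male pupa and male adult. Among these 13 was RR46_03592, which is not 1 of the 20 and was low in the male adult as well, at 0.155 RPKM. In RR46_06666 and RR46_09948 the 8 libraries other than the male pupa and male adult had 0 reads.

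RR46_13979 and RR46_02656 had the highest male pupa values among the 20. RR46_13979 had 106 RPKM in the male pupa (101 to 112), against 0.498 RPKM (0.200 to 1.03) in the female pupa. It had 18.8 RPKM (16.6 to 21.3) in the male adult and 1.52 RPKM (0.961 to 2.27) in the female adult. In the egg it was at 0.464 RPKM, and in instars 1 to 5 at 0.404, 0.340, 0.821, 0.630 and 0.0990 RPKM. Only the 2 male libraries of this gene were above the female adult value, and in each younger stage it had 10 reads or fewer.

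RR46_02656 had 105 RPKM in the male pupa (103 to 108), 10.3 RPKM (9.56 to 11.1) in the female pupa, 18.2 RPKM (17.2 to 19.3) in the male adult and 0.206 RPKM (0.115 to 0.340) in the female adult. In the egg it was at 0.194 RPKM, and in instars 1 to 5 at 0.0842, 0.177, 0.154, 0 and 0.124 RPKM. It thus differed from the rest of the group by a clear level in the female pupa. Apart from it, only RR46_07758, at 1.50 RPKM, reached 1 RPKM there.

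RR46_08989 and RR46_08307, singled out after their values were seen, had the highest ratios to the female pupa among the genes with reads there. Genes with 0 reads there have no measured ratio and were not ranked with them. RR46_08989 had 3334 reads in the male pupa, against 2 in the female pupa, a 1543-fold ratio of RPKM (exact interval 427 to 12748). RR46_08307 had 1237 reads and 1 read, a 1145-fold ratio (205 to 45265). For the 6 genes of the group with 0 reads in the female pupa, the male pupa was 25.3-fold to 285-fold above the level of 3 reads. The exact interval of a value of 0 reads reaches somewhat above 3 reads, so these are approximate lower limits. For RR46_03550 it reached 0.152 RPKM in the female pupa, against 0.124 RPKM for 3 reads. Over all 28 genes the difference between male and female pupa had a median of 3.88 in log2(RPKM + 1), against -0.03 over all genes. A difference of 2 or more in this direction was found in 28 of 28 genes, as the rule requires, and in 4.03% of all genes. For male pupa against male adult the figures were 28 of 28 genes and 4.87%.

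The 20 genes were the lower edge of a larger set. When the male adult was left out of the rule, 360 genes passed, that is, genes at least 4 times higher in the male pupa than in the other 8 libraries. Over these 360 genes the male adult held a median of 69.0% of the male pupa value, with quartiles of 44.4% and 101%. In 91 of them the male adult was at or above the male pupa, and in 269 below it. The male adult value alone kept out 332 genes, 16 of which had a ratio between 3 and 4. Among the 360 genes none lay between 2.41%, the highest share of the 8 genes with another next library, and 11.2%, the lowest share of the 20. The 8 genes thus stood apart in the male adult, while the 20 adjoined the genes that were kept out.

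**Figure D3:**
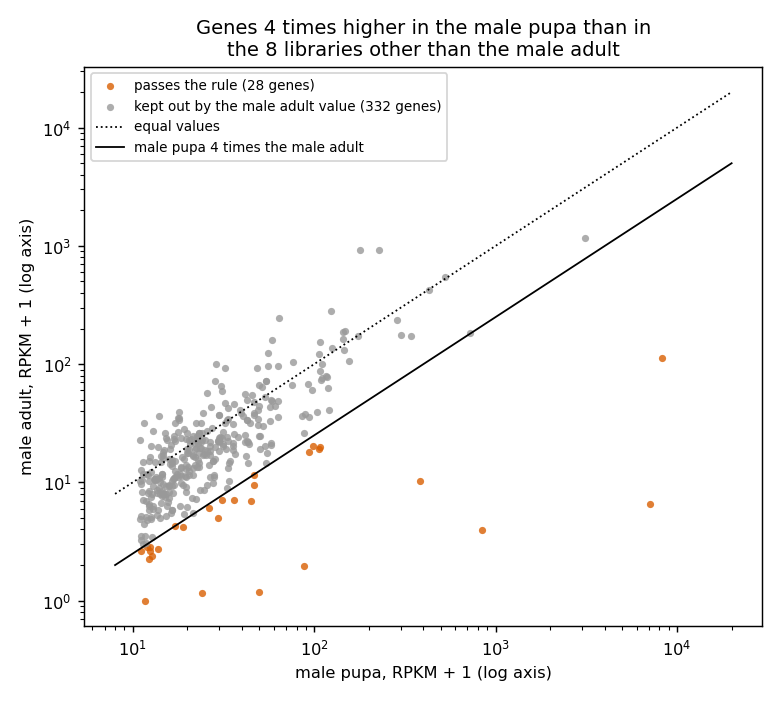
RPKM + 1 in the male pupa and in the male adult, both on log axes, for the 360 genes that were at least 4 times higher in the male pupa than in the 8 libraries other than the male adult, 1 point per gene. The 28 genes that pass the complete rule (orange) lie below the solid line, 20 of them close to the 332 other genes (grey) and 8 far below, at 2.41% or less of their male pupa value.

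The 8 genes whose next-highest library was not the male adult included the 4 most abundant genes of the set. Their male pupa values ranged from 10.8 to 8297 RPKM, with a median of 236 RPKM. Of these, 6 reached 1 RPKM in the female pupa, 7 did so in the egg or an instar, and 3 exceeded 5 RPKM in the egg or an instar. In the male adult the highest value was 111 RPKM and the median 1.97 RPKM. In each of the 7 with reads in the male adult, the male pupa was between 41.5-fold and 1262-fold higher.

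RR46_02278 was the most abundant, at 8297 RPKM (8248 to 8345) in the male pupa. Its next-highest library was instar 5, at 992 RPKM (971 to 1012), and the ratio between them was 8.37-fold (8.19 to 8.55). Instar 3 was close to instar 5, at 973 RPKM (954 to 991), and the intervals of these 2 libraries overlapped. The gene had 286 RPKM in the egg, 316 in instar 1, 520 in instar 2 and 392 in instar 4. The female pupa had 461 RPKM (449 to 473), which made the male pupa 18.0-fold higher (17.5 to 18.5). The male adult had 111 RPKM (105 to 117) and the female adult 146 RPKM (140 to 153). This gene was thus expressed in each library, and the female pupa lay within the range of the larvae.

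RR46_11993 had 7080 RPKM (7058 to 7103) in the male pupa and 1213 RPKM (1203 to 1223) in the female pupa, a ratio of 5.84-fold (5.79 to 5.89). It had 70.8 RPKM in the egg and 122, 329, 230, 289 and 778 RPKM in instars 1 to 5. In adults it was low, at 5.61 RPKM (4.95 to 6.32) in the male and 21.1 RPKM (19.9 to 22.3) in the female. Both pupae were above every larva, and every larva was above both adults. The male pupa was 1262-fold higher (1119 to 1429) than the male adult.

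RR46_04097 had 846 RPKM (830 to 862) in the male pupa and 161 RPKM (154 to 168) in the female pupa. Instar 3 was next, at 130 RPKM (124 to 137), while instars 1, 2, 4 and 5 had 12.3, 25.5, 31.2 and 7.24 RPKM and the egg 10.5 RPKM. The male adult had 2.96 RPKM (2.06 to 4.12) and the female adult 7.76 RPKM (6.33 to 9.41). As with RR46_11993, the next-highest library was the female pupa, but here the level in instar 5 was among the lowest.

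RR46_04257 was the only gene with the female adult as its next library. It had 384 RPKM (369 to 398) in the male pupa, 59.5 RPKM (53.7 to 65.7) in the female pupa, 9.24 RPKM (7.01 to 11.9) in the male adult and 91.4 RPKM (84.5 to 98.7) in the female adult. In the egg it had 0.854 RPKM, and in instars 1 to 5 it had 0.434, 1.83, 0.353, 3.21 and 0 RPKM. Signal above a few RPKM was thus limited to pupae and adults.

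**Figure D4:**
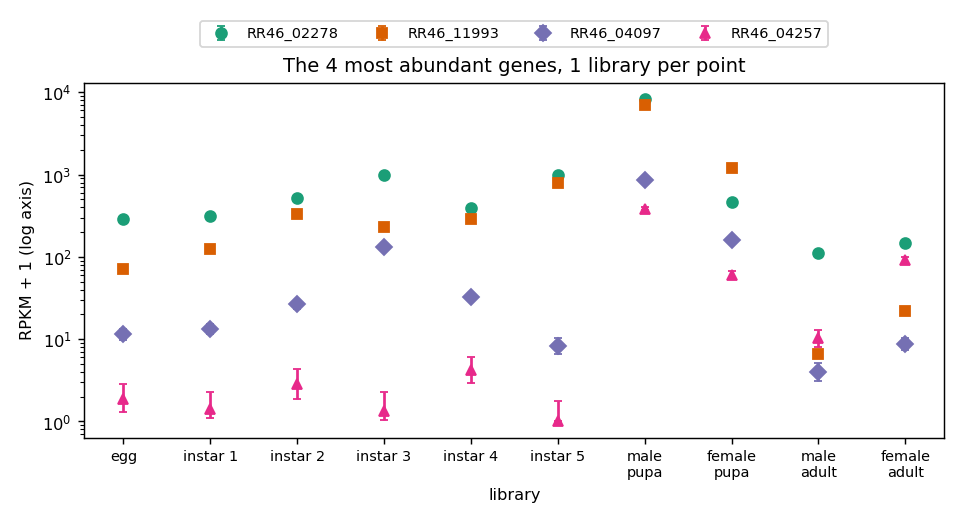
RPKM + 1 on a log axis in each of the 10 libraries for the 4 most abundant of the 28 genes, with exact 95% counting intervals as error bars (most are smaller than the points) and 1 library per point. The highest point of each gene is the male pupa, between 384 and 8297 RPKM, and RR46_02278 has at least 111 RPKM in each of the 10 libraries.

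The remaining 4 of the 8 genes were of lower level. RR46_01535 had 87.5 RPKM (83.7 to 91.4) in the male pupa, 19.0 RPKM (17.2 to 21.0) in the female pupa, 0.974 RPKM (0.595 to 1.50) in the male adult and 13.6 RPKM (12.1 to 15.2) in the female adult. Its highest younger stage was instar 4, at 2.28 RPKM. RR46_03630 had 48.9 RPKM (46.3 to 51.5) in the male pupa and 9.01 RPKM (7.91 to 10.2) in the female pupa, and did not exceed 1.34 RPKM, in instar 2, elsewhere.

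RR46_03592 had the largest difference to the next-highest library of the 28 genes, and it was the only one below 1 RPKM in all other 9 libraries. It had 23.2 RPKM (21.4 to 25.0) in the male pupa and 674 reads. Its next library was instar 3, at 0.685 RPKM (0.392 to 1.11) and 16 reads, which made the male pupa 33.8-fold higher (20.6 to 59.4). The female pupa had 0.334 RPKM (0.153 to 0.634) and the male adult 0.155 RPKM (0.0421 to 0.396). The order of the other 9 libraries rested on 2 to 16 reads each. RR46_08721 had 10.8 RPKM (9.02 to 12.7) in the male pupa and 135 reads, 1.30 RPKM (0.744 to 2.11) in instar 1 and 0.721 RPKM (0.330 to 1.37) in the egg. It was the only gene with 0 reads in the male adult. It also had 0 reads in the female pupa, and the male pupa was 41.7-fold above the level of 3 reads there.

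The adult sexes were compared next, a ratio that the rule does not contain, although both adult libraries were limits in it. By 2 or more in log2(RPKM + 1), 9 of the 28 genes (32.1%) were higher in the male adult than in the female adult, against 10.3% of all genes. In the opposite direction there were 2 of the 28 genes (7.14%), against 8.87% of all genes. The median difference was 1.40 over the 28 genes and 0.04 over all genes. The 9 genes were all among the 20 with the male adult as next library, a grouping that itself requires the male adult to exceed the female adult. With a pseudocount of 0.1 in place of 1, 24 of 37 genes passing (64.9%) were higher by 2 or more in the male adult, against 17.3% of all genes. Without the female pupa in the rule, 14 of 93 genes (15.1%) were, by the difference with 1 added.

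RR46_02656 had the largest such difference, 4.00. RR46_08989 followed with 3.53, at 17.0 RPKM (15.6 to 18.4) in the male adult and 0.553 RPKM (0.338 to 0.855) in the female adult. In the other direction were RR46_04257, with a difference of -3.17, and RR46_01535, with -2.88. In all 8 genes with another next library the male adult value was below the female adult value, but in RR46_03592, RR46_03630 and RR46_08721 this rested on at most 16 reads in either adult.

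**Figure D5:**
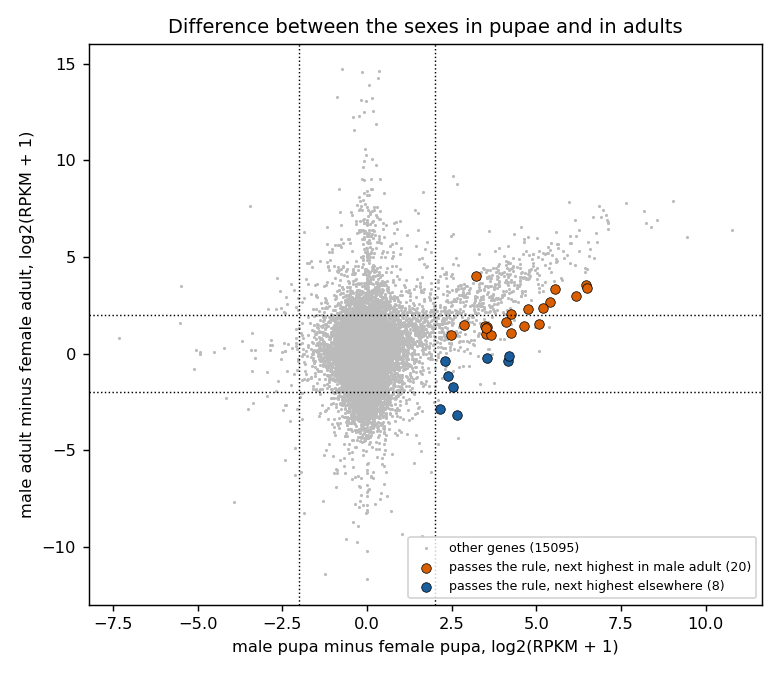
Difference between male and female pupa (x axis) and between male and female adult (y axis), both in log2(RPKM + 1), for the 28 genes (large points, by next-highest library) and the other 15095 genes (small grey points), with dotted lines at differences of 2 and -2. The 28 genes lie right of 2 on the x axis by the rule, with 9 above 2 and 2 below -2 on the y axis.

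The last larva and the female pupa were compared to see whether the genes were also higher in a pupa of the other sex. By 2 or more in log2(RPKM + 1), 5 of the 28 genes (17.9%) were higher in the female pupa than in instar 5, against 13.3% of all genes, and 0 were lower by 2 or more, against 7.47% of all genes. The share that was higher was close to that of all genes. A gene below 1 RPKM in instar 5 cannot be lower by 2 in the female pupa. Only 4 of the 28 genes reached 1 RPKM in instar 5, against 71.2% of all genes, and 16 had 0 reads there, against 8.92% of all genes. Nor can a gene below 1 RPKM in the female pupa be higher by 2, and 8 of the 28 reached 1 RPKM there, against 75.2% of all genes. Low levels thus limited both shares, and no conclusion about the 28 genes is drawn from them. The median difference was 0.08 over the 28 genes and 0.55 over all genes. The 5 genes were RR46_04257 with 5.92, RR46_04097 with 4.30, RR46_02656 with 3.33, RR46_03630 with 3.32 and RR46_01535 with 3.16, all named since they are so few. The lowest value was that of RR46_02278, at -1.10, with 461 RPKM in the female pupa and 992 RPKM in instar 5. Rescaling the libraries moved the median of this difference over all genes at 1 RPKM or more on average by -0.51 (same upper quartile) or by 0.73 (same sum).

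Features outside the levels were examined last. Gene lengths read back from the values had a median of 783 bp in the 28 genes, from 130 to 2886 bp, and of 1002 bp over all genes. Of the 28 genes 18 were shorter than the median gene. The lengths are the smallest that the values allow, and 27 of the 28 were multiples of 3, as were 99.9% over all genes. None of the 28 belonged to the 8 clusters of near-identical genes in the table, which held 0.218% of all genes. RR46_14780 and RR46_14781 had consecutive numbers, at 11.4 RPKM each in the male pupa and at 1.82 and 1.61 RPKM in the male adult. Their lengths of 2886 and 1632 bp differed. RR46_06664 and RR46_06666 were 2 numbers apart, at 11.0 and 10.2 RPKM in the male pupa and at 1.84 and 1.65 RPKM in the male adult. These pairs were named after their values were seen. Whether neighbouring numbers mean neighbouring genes was not tested, as no annotation of these identifiers was used here.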

How the data were processed

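Poly-A RNA of whole bodies was sequenced from both ends on an Illumina HiSeq instrument in 10 libraries of *P. xuthus*, 1 per group. Groups were taken from the sample titles. The authors deposited RPKM, for 15123 genes of their own gene set. The submitters' processing notes name TopHat 1.0.12 and 1.4.1. The counter, the use of strand and the treatment of reads with several hits are not given in the sources used here. RPKM leaves the composition of a library uncorrected.

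Library totals were found from the commonest ratio between columns, and gene lengths and reads as the smallest whole numbers that fitted each gene. This gave whole reads, within 1e-06, for 100% of genes. True reads and lengths can be multiples of these. The procedure was tested on simulated data. Comparisons used log2(RPKM + 1), which understates changes of low genes, and a difference of 2. With 1 library per group no test was run. Genes of equal length, at least 100 reads in a library and reads within 2% or 3 reads of each other throughout were taken as near-identical. Alternatives changed the pseudocount, the minimum, the fold, the scaling and the libraries used. Genes were named by a rule on rank within each property. The members, lists and rules were chosen with earlier results of these data known. Python 3.11.15, NumPy 2.4.6, pandas 2.3.3 and SciPy 1.17.1 were used.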

Additional observations from a re-analysis of the deposited data

Results flagged for a closer look

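In 2 of the 28 genes the sexes differed by 2 or more in log2(RPKM + 1) at both stages, with the male higher in pupae and the female higher in adults. RR46_04257 was higher in the male than in the female pupa by 2.67 (384 against 59.5 RPKM), and its difference between male and female adult was -3.17 (9.24 against 91.4 RPKM). RR46_01535 was higher in the male than in the female pupa by 2.14 (87.5 against 19.0 RPKM), and its difference between male and female adult was -2.88 (0.974 against 13.6 RPKM). The pupal direction was fixed by the choice of genes, and in adults 8.87% of all genes were higher by 2 or more in the female, against 7.14% of the 28. With single libraries, the change from pupa to adult was not tested.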

How the results depend on the processing

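For 7 results, 110 values were computed under other settings, of which 22 moved by more than a set limit and 88 did not. The limit was 1.5-fold for numbers of genes, and for shares of genes a 95% binomial (Wilson) interval over the genes counted. That interval treats genes as independent and is wide for 28 genes, so a share within it can still have changed. For the share of summed RPKM and the median difference, the limit came from read-counting intervals. Many of the 88 values had little room to move. Leaving out 1 library can only add genes, and without the egg, any 1 instar or the female adult the same 28 passed. The number of genes was 37 with a pseudocount of 0.1, 31 with a minimum of 5 RPKM, 33 with none, 23 with libraries scaled to an equal upper quartile and 34 with an equal sum. All 28 remained under the first 3 settings by construction, as these only loosen the rule. Of the 28, 23 remained with the equal upper quartile and 27 with the equal sum, where RR46_04257 was lost. At a fold of 8, 2 genes passed, RR46_02278 and RR46_03592, by construction. Their values were 0% with the male adult next, 50% below 1 RPKM elsewhere, 0% higher by 2 or more in log2(RPKM + 1) in the male adult than in the female adult, 0% higher by 2 or more in the female pupa than in instar 5, 0.738% of summed RPKM and a median difference of 3.45. With a pseudocount of 0.1, 64.9% were higher by 2 or more in the male adult than in the female adult. The share of summed RPKM, 1.56%, was 1.57% with that pseudocount, 1.55% with the equal upper quartile, 1.53% with the equal sum and 1.65% with near-identical genes counted once.

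Leaving out 1 library at a time gave 28 to 360 genes, with 93 without the female pupa and 360 without the male adult. Genes with the male adult next made up 40.9% to 71.4%, genes below 1 RPKM elsewhere 3.57% to 66.1%, genes higher by 2 or more in the male adult than in the female adult 15.1% to 32.1%, genes higher by 2 or more in the female pupa than in instar 5 3.06% to 17.9%. A library left out of the rule was also left out of the libraries counted as elsewhere or as next-highest. The 66.1% therefore sets aside the male adult, where the 360 genes held a median of 69.0% of the male pupa value. The genes passing held 1.56% to 4.70% of summed RPKM, and the median difference was 2.32 to 3.71. The extremes came without the female pupa (40.9%, 15.1%, 4.70%, and a median of 2.69) and without the male adult (66.1%, 3.06%, 3.71, and 3.01% of summed RPKM). No paired analysis was possible because each group had 1 library.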
